A study of Mus musculus with 6 samples.

Results

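The proteasome genes of tumor Tregs were followed in 6 RNA-Seq libraries, 3 from control mice and 3 from Nr3c1-Foxp3Cre mice. Genes were taken by name: every gene whose symbol opens with Psm, then a letter from a to g, then a digit, with pseudogene names left out. The rule found 48 of the 12153 genes in the table. By the known place of each product, 14 were constitutive core subunits, 5 were immunoproteasome genes (*Psmb8*, *Psmb9*, *Psmb10*, *Psme1* and *Psme2*), 17 were subunits of the 19S particle, 7 encoded assembly chaperones and 4 encoded other activators or an inhibitor. The name went against the function for 1 gene, *Psmc3ip*, a cofactor of meiotic recombination that is no proteasome subunit. The core genes with tissue-restricted expression, *Psma8* of the testis and *Psmb11* of the thymic cortex, had no value in the table.

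Mice of both genotypes carried B16.F10 melanoma, a transplantable mouse tumor line, and tumors were taken at day 15 after inoculation. Control mice were labelled Nr3c1-flox, meaning that the glucocorticoid receptor gene *Nr3c1* was flanked by recombination sites and left in place. The Nr3c1-Foxp3Cre mice carried the same floxed gene and a YFP/Cre fusion driven by the *Foxp3* promoter, so that deletion was confined by design to cells that express *Foxp3*, the lineage factor of regulatory T cells (Tregs). The labels describe a sort on CD45, CD4 and CD25, and the study's methods describe one on Foxp3-YFP, an allele that the labels give to the Nr3c1-Foxp3Cre mice only, so genotype and any difference in sorting cannot be told apart. Sex, age and the number of mice behind a library are not given in the labels. P-values measure the spread between these libraries, and whether that spread is between animals is not stated.

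The proteasome is the protease that degrades ubiquitin-tagged proteins in the cytosol and nucleus. Its barrel-shaped 20S core has outer rings of alpha subunits (Psma genes) and inner rings of beta subunits (Psmb genes), of which *Psmb6*, *Psmb7* and *Psmb5* carry the catalytic sites. Lymphocytes and cells that have met interferon-gamma replace these with *Psmb9*, *Psmb10* and *Psmb8*, forming the immunoproteasome, which shapes the peptides presented on MHC class I. A 19S cap of ATPases (Psmc genes) and non-ATPase subunits (Psmd genes) binds, unfolds and feeds the substrate, and the PA28 cap of *Psme1* and *Psme2* is an alternative activator.

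The deposited values are log2 CPM (read counts scaled to a common library total) after quantile normalization, a step that gives every library the same distribution of values, and the read depth behind them is unknown. Totals of CPM were 999633 or 999634 in every library, and Pearson's r between libraries over all genes, which are not independent, was 0.957 to 0.980. *Nr3c1* (ENSMUSG00000024431.15) was at 7.15, 7.59 and 6.88 log2 CPM in the control libraries and at 6.14, 5.45 and 5.90 in the Nr3c1-Foxp3Cre libraries, without overlap. Its log2 fold change was -1.38 (SE 0.21, limma adjusted p = 0.120). All 7 Treg markers listed were measured, with *Foxp3* itself at 3.39 to 4.42 log2 CPM in control and 3.5 to 4.47 in Nr3c1-Foxp3Cre libraries. Melanoma markers were present too, at a summed 3598 to 9692 CPM in control and 3970 to 10093 in Nr3c1-Foxp3Cre libraries for 8 of 8 genes. In bulk samples, fewer cells of a type and less RNA per cell cannot be told apart.

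Deletion of the receptor was compared with control for each gene with limma's moderated test, adjusted over all 12153 genes. No proteasome gene passed: 0 of 48 had an adjusted p under 0.05, where the background was 0.0576% of all genes (0.0494% lower and 0.00823% higher). At an unadjusted p under 0.05 the count was also 0 of 48, where the background was 3.26% (1.65% lower and 1.61% higher). The smallest unadjusted p among the 48 was 0.133, for *Psmb7*, and the smallest adjusted p was 1.0. Groups stood apart, with no value of either inside the range of the other, for 2 of 48 genes. These were *Psmb4* and *Psmb7*, both lower in Nr3c1-Foxp3Cre libraries. The background for such a gap was 7.41% of all genes, 3.73% lower and 3.69% higher.

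The data put limits on the size of a change. Log2 fold changes of the 48 genes ran from -0.19 for *Psmg4* to 0.084 for *Psmc1*, with a median of -0.034, beside a median of -0.0014 over all genes. The 95% intervals, which are not widened for the number of genes, lay within 0.5 log2 units of 0 for 47 of 48 genes. The exception was *Psmg4*, the least abundant of the 48 in log2 CPM, whose interval reached down to -0.69, or 0.621 of the control level. At the other end, the interval of *Psmg3* reached 0.39, or 1.31 times the control level. An interval reached a median of 0.244 log2 units to each side of its estimate for the 48 genes and 0.407 for all genes, and the SD between libraries of a group had a median of 0.128 and 0.218 in the same order. The median level was 8.10 log2 CPM for the 48 genes and 4.92 for all genes, so these widths are not compared at like level.

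**Figure D1:**
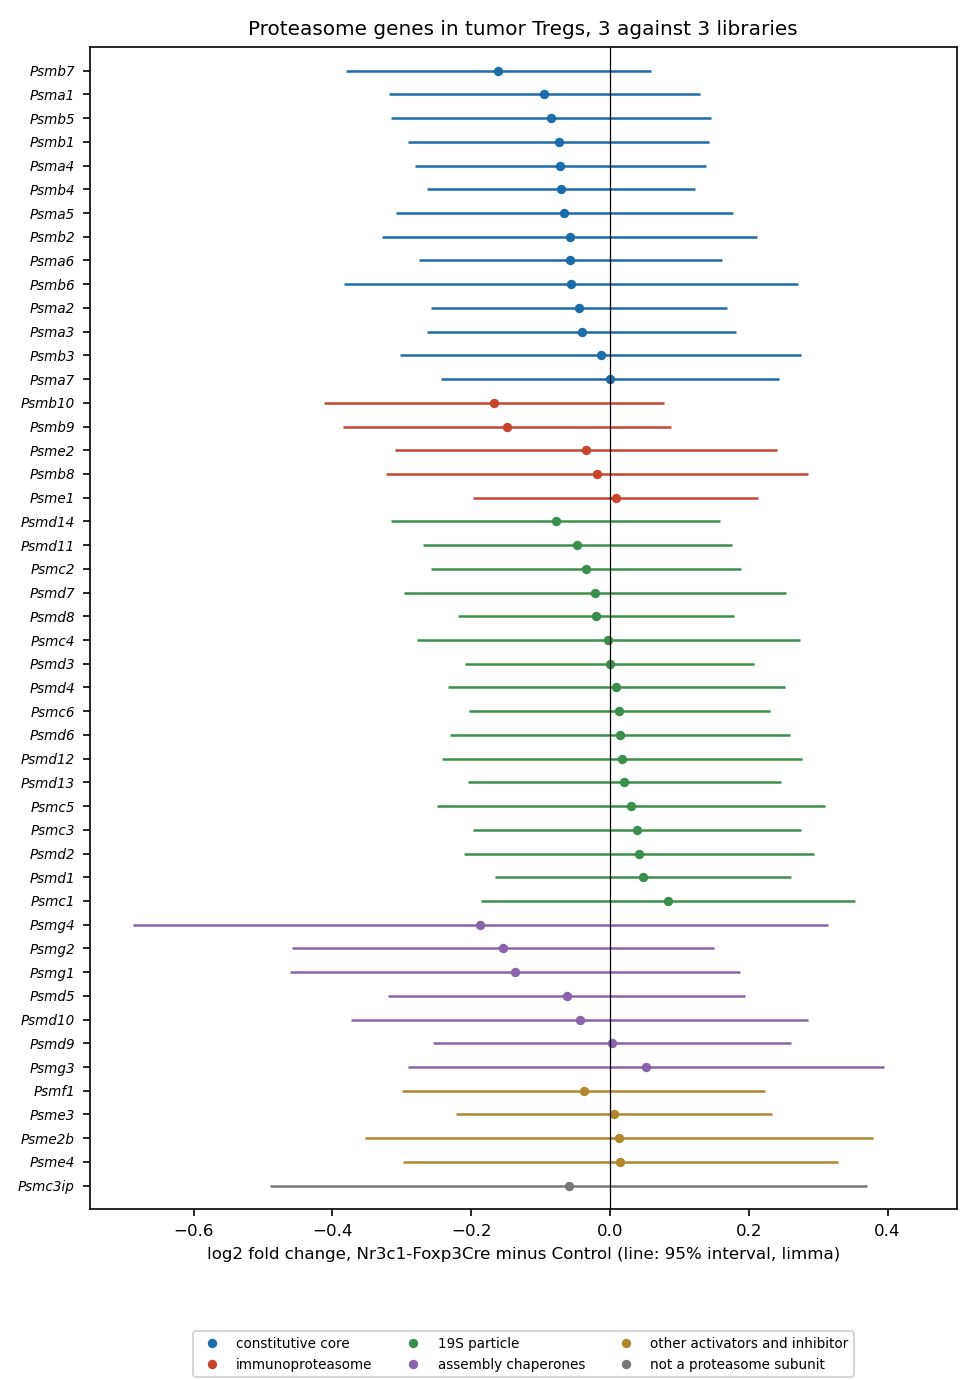
Log2 fold change of each of the 48 genes, Nr3c1-Foxp3Cre minus Control (x axis), with genes grouped by class on the y axis; points are limma estimates and lines their 95% intervals, from 3 against 3 libraries. Every interval crosses 0, and the point estimates run from -0.19 (Psmg4) to 0.084 (Psmc1).

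In the constitutive core, all 14 point estimates were below 0, though that of *Psma7* was so near 0 that it has no direction. The share of all genes below 0 was 50.5%. The median of the 14 was -0.062, the lowest was -0.16 for *Psmb7*, and the intervals ran from -0.38 (*Psmb6*) to 0.28 (*Psmb3*), which is 0.767 to 1.21 times the control level. The count rested on single libraries: 8 of 14 were below 0 without Control replicate 1 and 7 of 14 without Nr3c1-Foxp3Cre replicate 1.

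*Psmb5* (ENSMUSG00000022193.7, mm10 chr14:54614119-54618022) encodes the subunit with chymotrypsin-like activity, the main target of proteasome inhibitors. It was at 8.01, 7.78 and 7.85 log2 CPM in control libraries and 7.71, 7.77 and 7.91 in Nr3c1-Foxp3Cre libraries. The lowest value was in Nr3c1-Foxp3Cre replicate 1 and the highest in Control replicate 1, and the groups overlapped. Between groups the log2 fold change was -0.085 (SE 0.10, 95% interval -0.32 to 0.15). Of the 50-base stretches of its annotated transcripts, 54.1% also occur in transcripts of another gene, mainly *Gm3375*, so its count could be split with that copy.

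*Psmb6* (ENSMUSG00000018286.6, chr11:70525367-70527858) encodes the subunit with caspase-like activity. Its values were 8.94, 8.57 and 8.56 in control and 8.39, 8.82 and 8.70 in Nr3c1-Foxp3Cre libraries, the widest spread of the catalytic core genes. The highest library was a control and the lowest an Nr3c1-Foxp3Cre library, with the other four between them. *Psmb6* had a log2 fold change of -0.056 (SE 0.15, 95% interval -0.38 to 0.27).

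*Psmb7* (ENSMUSG00000026750.6, chr2:38588036-38644087) encodes the subunit with trypsin-like activity. It was at 7.04, 6.92 and 7.05 in control and 6.92, 6.75 and 6.86 in Nr3c1-Foxp3Cre libraries. The groups stood apart by a margin that disappears on rounding to 2 decimals. The log2 fold change was -0.16 (SE 0.10, 95% interval -0.38 to 0.059, unadjusted p = 0.133 by limma). Of its exon bases, 11.8% overlap *Nek6* on the opposite strand, and the library kit does not mark strand, so reads there cannot be assigned to either gene.

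*Psmb4* (ENSMUSG00000005779.12, chr3:94884093-94886961), a non-catalytic beta subunit with a part in core assembly, varied least within groups among the genes shown. It was at 7.34, 7.30 and 7.33 in control and 7.26, 7.24 and 7.26 in Nr3c1-Foxp3Cre libraries, and every Nr3c1-Foxp3Cre library lay below every control library. The difference of group means was -0.071 (95% interval -0.26 to 0.12, unadjusted p = 0.427 by limma). Its SE of 0.09 is larger than the gene's own pooled SD within groups, 0.0158, because limma sets the spread of a gene partly from genes of like level. The non-catalytic alpha subunit *Psma7* (ENSMUSG00000027566.15) was at 8.91, 8.60 and 8.74 against 8.65, 8.81 and 8.79, with both group means at 8.75.

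Motif matches near the start sites of *Psmb5* and *Psmb6* are printed because *Nfe2l1*, the factor that raises proteasome genes when proteolysis is short, binds antioxidant response elements. Sequences are from RefSeq on GRCm38.p6, 5′ to 3′ on the strand of the gene. Capitals mark the element's core, TGANNNNGC on either strand. The windows are chr14:54618024-54618052 on the minus strand, with the match opening at position -47, counted with the start base as 0, and chr11:70525338-70525366 on the plus strand, with the match at -9. *Psmb5* holds another match at position 41, not printed. TGANNNNGC occurs near a start site for 45% of all genes, so a match alone says little.
Psmb5: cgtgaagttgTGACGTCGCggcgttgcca
Psmb6: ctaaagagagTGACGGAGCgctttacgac

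Of the 5 immunoproteasome genes, 1 had a point estimate above 0 and 4 below, with a median of -0.035 and none past the test. The intervals of the 5 ran from -0.41 (*Psmb10*) to 0.29 (*Psmb8*), or 0.751 to 1.22 times the control level.

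*Psmb8* (ENSMUSG00000024338.15, chr17:34197721-34201454), the immune counterpart of *Psmb5*, had the highest log2 CPM of the 48 genes. It was at 10.33, 10.14 and 10.31 in control and 10.02, 10.22 and 10.49 in Nr3c1-Foxp3Cre libraries. The Nr3c1-Foxp3Cre group held both the lowest and the highest value. By limma the log2 fold change was -0.018 (SE 0.14, 95% interval -0.32 to 0.29). *Gm20496* on the opposite strand overlaps 14.7% of its exon bases.

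*Psmb9* (ENSMUSG00000096727.3, chr17:34181987-34187764), the immune counterpart of *Psmb6*, was at 8.32, 8.33 and 8.49 in control and 8.20, 8.11 and 8.38 in Nr3c1-Foxp3Cre libraries. Nr3c1-Foxp3Cre replicate 3 lay above the lower pair of controls, so the groups overlapped. Between groups the log2 fold change was -0.15 (SE 0.11, 95% interval -0.39 to 0.087, unadjusted p = 0.188 by limma).

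*Psmb10* (ENSMUSG00000031897.9, chr8:105935735-105938444), the immune counterpart of *Psmb7*, was at 7.73, 7.47 and 7.73 in control and 7.45, 7.39 and 7.59 in Nr3c1-Foxp3Cre libraries. Control replicate 2 lay among the Nr3c1-Foxp3Cre values. The log2 fold change was -0.17 (SE 0.11, 95% interval -0.41 to 0.077, unadjusted p = 0.156 by limma), the lowest of the 5.

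The genes of the PA28 cap lie close together on chromosome 14. *Psme1* (ENSMUSG00000022216.17, chr14:55578123-55581529) was at 8.54, 8.53 and 8.63 in control and 8.57, 8.50 and 8.66 in Nr3c1-Foxp3Cre libraries, a log2 fold change of 0.0084 (SE 0.09, 95% interval -0.20 to 0.21). *Psme2* (ENSMUSG00000079197.10, chr14:55587441-55591113) was at 9.75, 9.47 and 9.58 in control and 9.40, 9.53 and 9.75 in Nr3c1-Foxp3Cre libraries, a log2 fold change of -0.035 (SE 0.12, 95% interval -0.31 to 0.24). *Psme1* was nearly level over the 6 libraries, and *Psme2* had its lowest value in Nr3c1-Foxp3Cre replicate 1. Of the 50-base stretches of *Psme2*, 28.3% occur in transcripts of other genes, among them the processed copy *Gm7928*, whose own share is not given.

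Elements read by interferon factors are printed for 2 of these genes, since interferon-gamma is their known inducer. In *Psmb8* the capitals mark a gamma-activated site, TTCNNNGAA, at chr17:34198088-34198116 on the plus strand, position -97. In *Psme1* they mark an interferon-stimulated response element, read on the opposite strand, at chr14:55578493-55578522, position 9. *Psmb9* is shown with its antioxidant response element core at chr17:34187372-34187400 on the minus strand, position -60, because 275 bases of its 300-base promoter window are shared with the window of *Tap1*, a peptide transporter gene on the other strand.
Psmb8: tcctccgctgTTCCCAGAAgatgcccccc
Psme1: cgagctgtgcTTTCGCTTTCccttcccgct
Psmb9: ccttgcgcgaTGATGGGGCggggcctcag

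The balance between immune and constitutive catalytic subunits was compared within each library as a difference in log2 CPM, in which gene length cancels between groups. *Psmb8* minus *Psmb5* was 2.32, 2.37 and 2.47 in control and 2.31, 2.45 and 2.59 in Nr3c1-Foxp3Cre libraries. The means were 2.38 ± 0.076 (SD, n = 3) and 2.45 ± 0.14 (SD, n = 3), a difference of 0.067 (exact two-sided permutation test, p = 0.7). The control range lay inside that of the Nr3c1-Foxp3Cre libraries.

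*Psmb9* minus *Psmb6* was -0.63, -0.24 and -0.068 in control and -0.19, -0.71 and -0.32 in Nr3c1-Foxp3Cre libraries, and varied most within a group. The means were -0.31 ± 0.29 and -0.41 ± 0.27 (SD, n = 3 each), a difference of -0.093 (exact permutation test, p = 0.6). *Psmb10* minus *Psmb7* was 0.69, 0.54 and 0.68 in control and 0.53, 0.64 and 0.72 in Nr3c1-Foxp3Cre libraries. The means were 0.64 ± 0.082 and 0.63 ± 0.10 (SD, n = 3 each), a difference of -0.0069 (exact permutation test, p = 0.9). The adjusted p over the 3 pairs was 0.9 for each, and the smallest p that 3 against 3 libraries allow is 0.1, so this design could not pass 0.05.

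**Figure D2:**
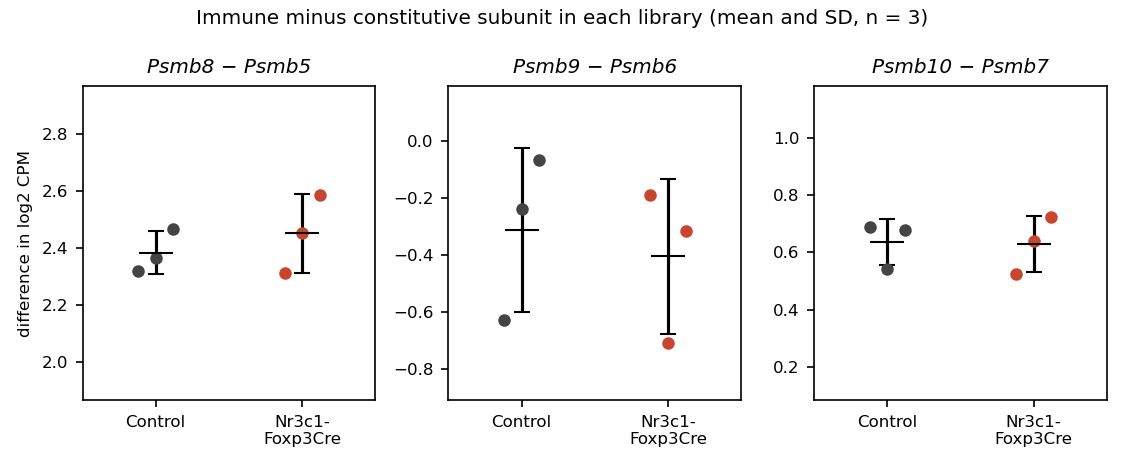
Immune minus constitutive catalytic subunit in each library, in log2 CPM (y axis), for Control and Nr3c1-Foxp3Cre libraries (x axis); points are libraries, bars mean and SD of 3, and each y axis spans the same range of log2 units around its own centre and does not start at 0. The groups overlap in all 3 pairs, with differences of means of 0.067, -0.093 and -0.0069.

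In the 19S particle, 10 of 17 point estimates were above 0 and 7 below, with a median of 0.013 and none past the test or without overlap. They ran from -0.078 for *Psmd14* to 0.084 for *Psmc1*. The intervals ran from -0.31 (*Psmd14*) to 0.35 (*Psmc1*), or 0.804 to 1.28 times the control level.

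*Psmc1* (ENSMUSG00000021178.9, chr12:100110154-100123405), an ATPase of the base, was at 8.82, 8.47 and 8.59 in control and 8.56, 8.84 and 8.73 in Nr3c1-Foxp3Cre libraries. Control replicate 1 and Nr3c1-Foxp3Cre replicate 2 were the highest and lay level with each other. The gene had a log2 fold change of 0.084 (SE 0.12, 95% interval -0.19 to 0.35, unadjusted p = 0.50 by limma).

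Another base ATPase, *Psmc5* (ENSMUSG00000020708.12, chr11:106256154-106263120), was at 8.44, 8.07 and 8.16 in control and 8.13, 8.42 and 8.21 in Nr3c1-Foxp3Cre libraries, a log2 fold change of 0.030 (SE 0.12). The same libraries were highest. *Psmd2* (ENSMUSG00000006998.16, chr16:20651652-20663414), the scaffold and ubiquitin-receptor subunit of the base, was at 9.66, 9.38 and 9.51 against 9.45, 9.69 and 9.53, a log2 fold change of 0.042 (SE 0.11). Here too Control replicate 1 and Nr3c1-Foxp3Cre replicate 2 were on top.

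*Psmd14* (ENSMUSG00000026914.15, chr2:61711694-61800376) encodes the deubiquitinase of the lid. It was at 8.05, 7.94 and 8.06 in control and 7.77, 7.97 and 8.07 in Nr3c1-Foxp3Cre libraries. A single library, Nr3c1-Foxp3Cre replicate 1, was low. By limma the log2 fold change was -0.078 (SE 0.11, unadjusted p = 0.474). *Psmc6* (ENSMUSG00000021832.8), the least abundant of the 17, was at 6.95, 6.83 and 6.95 against 6.89, 7.01 and 6.87, a log2 fold change of 0.013 (SE 0.10).

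The 7 assembly chaperones, which bind subunits while a particle forms and leave it when finished, had 2 point estimates above 0 and 5 below, with a median of -0.063. *Psmg4* (ENSMUSG00000071451.10, chr13:34162964-34178173), which helps to build the alpha ring, was at 4.38, 3.68 and 4.23 in control and 3.73, 4.01 and 3.99 in Nr3c1-Foxp3Cre libraries. Control replicate 2 was the lowest of all 6. The log2 fold change was -0.19 (SE 0.22, 95% interval -0.69 to 0.31), the largest in size among the 48 and the least precise.

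*Psmg2* (ENSMUSG00000024537.5), the partner of *Psmg1* in the first alpha-ring chaperone, was at 5.70, 5.37 and 5.60 in control and 5.34, 5.35 and 5.53 in Nr3c1-Foxp3Cre libraries. The low control and the high Nr3c1-Foxp3Cre library made the groups overlap. *Psmg2* had a log2 fold change of -0.15 (SE 0.13, 95% interval -0.46 to 0.15, unadjusted p = 0.282 by limma). The chaperones of the ATPase ring, *Psmd10* and *Psmd9*, had log2 fold changes of -0.044 (SE 0.15) and 0.0031 (SE 0.11). *Psmd10* (ENSMUSG00000031429.14) was at 6.23, 6.24 and 6.17 against 5.84, 6.32 and 6.35, with Nr3c1-Foxp3Cre replicate 1 apart from the rest. *Psmd9* (ENSMUSG00000029440.15) was at 5.63, 5.56 and 5.60 against 5.51, 5.59 and 5.70, and 25.5% of its exon bases overlap *Gm26745* on the opposite strand.

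Of the other activators, *Psme3* (ENSMUSG00000078652.9), the nuclear PA28-gamma cap, was at 8.46, 8.22 and 8.42 in control and 8.29, 8.43 and 8.40 in Nr3c1-Foxp3Cre libraries, a log2 fold change of 0.0059 (SE 0.10). *Psme4* (ENSMUSG00000040850.17), the PA200 cap, was at 5.21, 5.26 and 5.28 against 5.26, 5.07 and 5.47, a log2 fold change of 0.015 (SE 0.14). Both groups sat at the same mean to within 0.015 log2 units. The inhibitor *Psmf1* and the *Psme2* copy *Psme2b* lay between -0.038 and 0.012, and *Psmc3ip* was at -0.060. Of the 50-base stretches of *Psme2b*, 69.3% occur in transcripts of other genes, the highest share among the 48. Others of the 48 count among these genes, and outside the 48 the gene is *Gm7928*.

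For each of the 3 main lists the SD between libraries of a group exceeded the difference between the group means. Mean log2 CPM over the 14 core genes was 8.21 ± 0.083 in control and 8.15 ± 0.099 in Nr3c1-Foxp3Cre libraries (SD, n = 3 each), over the 5 immunoproteasome genes 8.89 ± 0.090 and 8.82 ± 0.14, and over the 17 genes of the 19S particle 8.09 ± 0.092 and 8.10 ± 0.093. Groups overlapped for all 3 lists. Together the 48 genes made up 1.2 to 1.42% of CPM in a library.

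The 3 lists did not order the libraries alike. Core genes were highest in Control replicate 1, where 14 of 14 were above their own mean over the 6 libraries, and lowest in Nr3c1-Foxp3Cre replicate 1, where 0 of 14 were. Immunoproteasome genes were above their own means for 5 of 5 genes in Control replicate 3 and Nr3c1-Foxp3Cre replicate 3, and for 0 of 5 in Nr3c1-Foxp3Cre replicates 1 and 2. Genes of the 19S particle were above their own means for 14 of 17 genes in Control replicate 1 and for 13 of 17 in Nr3c1-Foxp3Cre replicates 2 and 3, and for 2 of 17 in Control replicate 2 and 1 of 17 in Nr3c1-Foxp3Cre replicate 1.

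Markers of other cells moved between the same libraries, and so did those of Tregs. The 7 Treg markers deviated from their own means by an average of -0.28, 0.31 and -0.036 log2 units in the control libraries. In the Nr3c1-Foxp3Cre libraries these averages were 0.21, -0.23 and 0.017. The 8 melanoma markers deviated from their own means by an average of 0.62, -0.79 and 0.27 log2 units in the control libraries and 0.074, 0.57 and -0.74 in the Nr3c1-Foxp3Cre libraries. In the libraries with the most, Control replicate 1 and Nr3c1-Foxp3Cre replicate 2, 13 of 17 genes of the 19S particle were above their own mean in both, as were 5 of 14 core genes and 0 of 5 immunoproteasome genes. Over all genes the count was 3572 of 12153. In the libraries with the least, Nr3c1-Foxp3Cre replicate 3 and Control replicate 2, 4 of 17 genes of the 19S particle were below their own mean in both. The counts were 1 of 14 for the core, 0 of 5 for the immunoproteasome and 2796 of 12153 for all genes. Both orders held for 4 of 17 genes of the 19S particle (23.5%) and for 15.3% of all genes. The 9 macrophage and monocyte markers stood at 0.48, -0.15 and 0.24 against -0.51, 0.36 and -0.42. They were highest in the same libraries as the melanoma markers, Control replicate 1 and Nr3c1-Foxp3Cre replicate 2. Their lowest library was Nr3c1-Foxp3Cre replicate 1, where the melanoma markers were at 0.074. Of these markers, 0 of 9 were past the test, with a median log2 fold change of -0.39. With the mean of the melanoma markers as a covariate, the core median log2 fold change was -0.062 and that of the 19S particle 0.014. With the mean of the macrophage markers instead, these medians were -0.047 and 0.11, and 10 of 14 core genes were below 0.

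**Figure D3:**
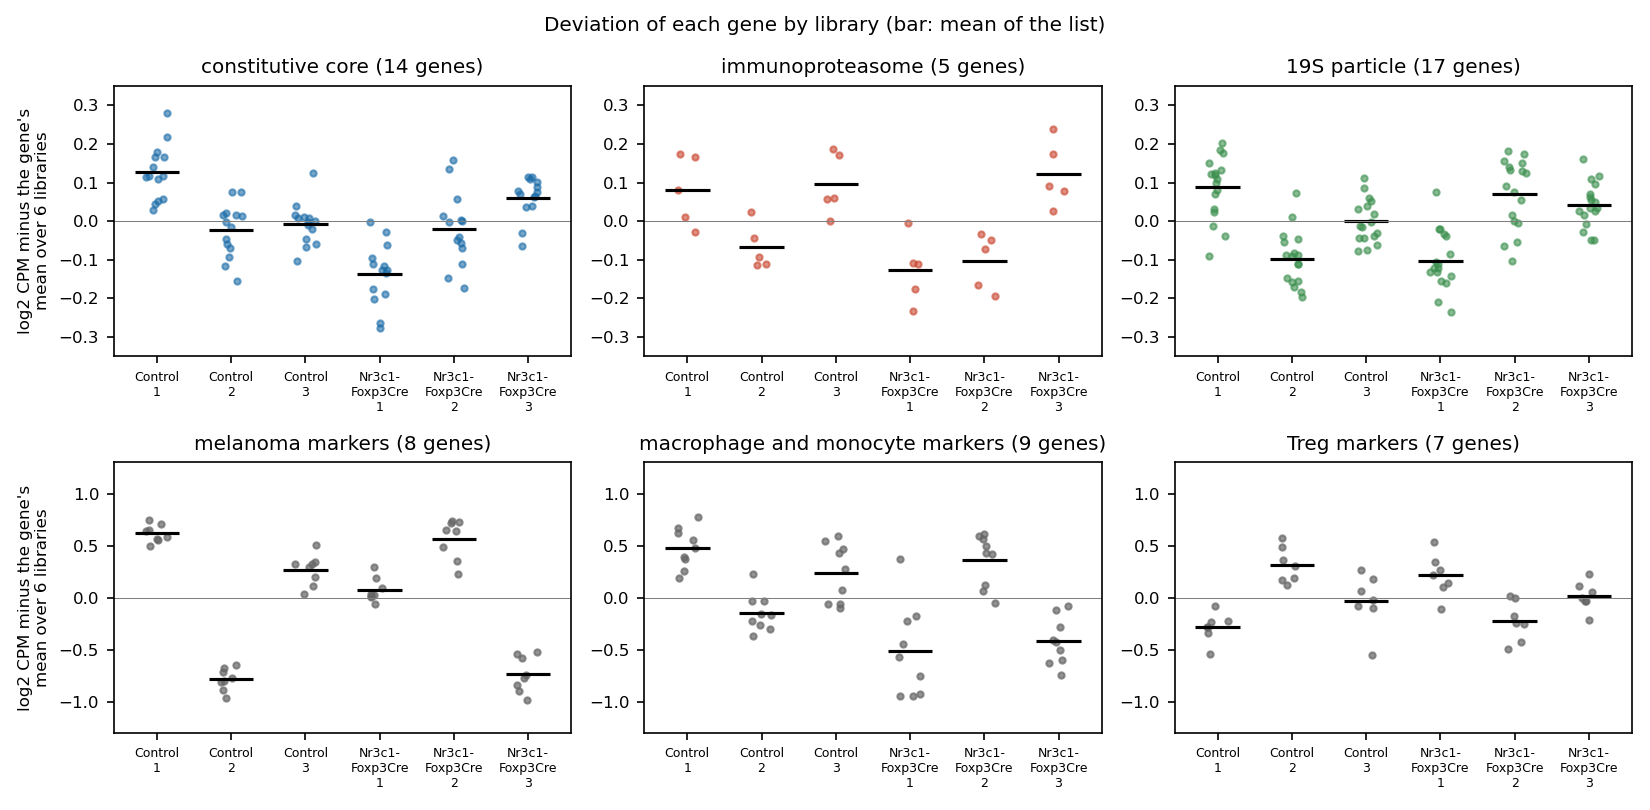
Deviation of each gene from its own mean over the 6 libraries, in log2 CPM (y axis), by library (x axis), for the 3 proteasome lists (upper row) and for melanoma, macrophage and Treg markers (lower row, wider y axis); points are genes and bars the mean of a list. Core genes are highest in Control 1 (0.13) and lowest in Nr3c1-Foxp3Cre 1 (-0.14), and melanoma markers range from -0.79 (Control 2) to 0.62 (Control 1).

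Of the other markers listed, 5 of 5 fibroblast genes had point estimates below 0, with a median of -1.69, and their summed level was 187 to 460 CPM in control and 76.7 to 167 CPM in Nr3c1-Foxp3Cre libraries, without overlap. None passed the adjusted test, and 3 of 5 had an unadjusted p under 0.05, where the background was 3.26% of all genes. Taken singly, groups stood apart for 2 of the 5, *Col1a1* and *Col1a2*, where the background was 7.41%. B cell markers were measured for 1 of 4 genes, NK cell markers for 0 of 3, CD8 T cell markers for 1 of 2 and dendritic cell markers for 3 of 5. The 6 proliferation genes had a median log2 fold change of -0.10, with 1 above 0 and 0 past the test. What part these cells have in the proteasome values was not tested beyond the covariates named.

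Levels of different genes were compared per length, as log2 CPM per kilobase of merged exons (GENCODE M21, mm10), averaged over the 6 libraries. *Psme2* was the highest of the 48 at 8.76 and *Psmb8* came next at 8.50, ahead of the highest core gene, *Psmb5*, at 7.99. The core spanned 7.15-fold, from *Psmb5* down to *Psmb7* at 5.15. The 5 immunoproteasome genes spanned 5.03-fold, down to *Psmb9* at 6.43, and the 19S particle 6.27-fold, from *Psmc5* at 7.76 down to *Psmc6* at 5.11. Medians per list were 7.0 for the core, 7.43 for the immunoproteasome, 6.54 for the 19S particle and 4.69 for the chaperones, which ran from *Psmd10* at 5.64 to *Psmd9* at 2.74. *Psme3* stood at 6.81 and *Psme4* at 2.19.

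The level depends on which exons are counted. With the longest transcript in place of merged exons, *Psme2* was again the highest, at 9.64, but *Psmb6* led the core at 8.71 and *Psmc1* the 19S particle at 8.0, and *Psmg3* replaced *Psmd9* as the lowest chaperone, at 3.46. Levels are those of a whole library, in which melanoma markers were present too. In the control libraries the immune subunit exceeded its constitutive partner per length for *Psmb8* over *Psmb5*, by 0.47 log2 units or 1.39-fold. The difference for *Psmb10* over *Psmb7* was 1.64, or 3.12-fold. *Psmb9* was at 0.412 of the level of *Psmb6*, a difference of -1.28. With the longest transcript these log2 differences were 1.3, 1.76 and -1.89 in the same order, so the directions held for these pairs. The order of the lists did not hold: with the longest transcript the core median, 7.93, was above that of the immunoproteasome, 7.58, whereas by merged exons it was below.

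**Figure D4:**
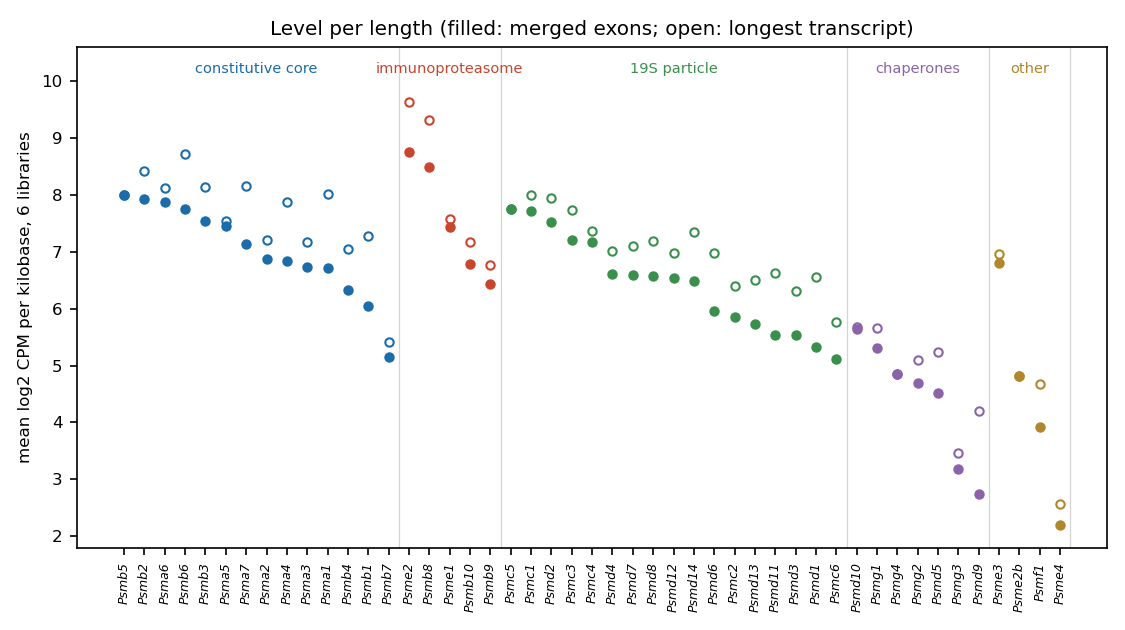
Mean level of 47 proteasome genes over the 6 libraries in log2 CPM per kilobase (y axis), by gene and class (x axis); filled points use merged exons and open points the longest annotated transcript. Psme2 (8.76) and Psmb8 (8.50) lie above every core gene by merged exons, and the highest chaperone, Psmd10, is at 5.64.

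Genes around the proteasome were taken from 3 lists. Among partners and transcriptional control, 13 of 15 listed names, older names included, had a value, of which 4 had point estimates above 0 and 9 below, with 0 past either threshold. They ran from -0.19 for *Uchl5*, a deubiquitinase bound to the 19S particle, to 0.18 for *Nfe2l1* (ENSMUSG00000038615.17). *Nfe2l1* was at 6.34, 6.67 and 6.62 in control and 6.86, 6.81 and 6.49 in Nr3c1-Foxp3Cre libraries, and its groups overlapped (SE 0.14, 95% interval -0.13 to 0.48).

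Among the genes of interferon control and class I antigen processing, 18 of 18 were measured, with 8 above 0, 10 below and 0 past either threshold, and a median of -0.032. *Irf1* (ENSMUSG00000018899.16), a factor that induces the immunoproteasome genes, was at 7.75, 7.87 and 7.98 in control and 8.29, 7.76 and 8.10 in Nr3c1-Foxp3Cre libraries, a log2 fold change of 0.18 (SE 0.14, 95% interval -0.13 to 0.50). *Irf1* was highest in Nr3c1-Foxp3Cre replicate 1, without which the log2 fold change was 0.061, and the groups overlapped. With the macrophage covariate it was 0.023. *Tap1* (ENSMUSG00000037321.17), which shares its promoter region with *Psmb9*, was at 9.86, 9.73 and 9.94 against 9.81, 9.75 and 9.97, a log2 fold change of 0.0020 (SE 0.11).

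Among the genes that supply, activate and deliver ubiquitin, 15 of 16 listed names had a value, with 9 above 0, 6 below and 0 past either threshold. The genes named next were chosen after their values were seen, for groups that do not overlap. *Vcp* (ENSMUSG00000028452.7), the ATPase that extracts ubiquitinated proteins, was at 9.85, 9.71 and 9.82 in control and 9.92, 9.94 and 9.92 in Nr3c1-Foxp3Cre libraries, a log2 fold change of 0.13 (SE 0.09). Every Nr3c1-Foxp3Cre library lay above every control library. The shuttle factor *Ubqln2* (ENSMUSG00000050148.9) was lower in every Nr3c1-Foxp3Cre library, at 2.79, 2.35 and 2.88 against 2.97, 3.02 and 3.0, with a log2 fold change of -0.33 (SE 0.25).

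Promoter windows of 300 bases, 250 before and 50 after a RefSeq start on GRCm38.p6, were found for 41 of the 48 genes. *Psmb1*, *Psmb2*, *Psmb7*, *Psmc3*, *Psmd3*, *Psmd7* and *Psmg2* had no entry. The antioxidant response element core TGANNNNGC, on either strand, was in the windows of 8 of 11 core genes, 3 of 5 immunoproteasome genes and 6 of 14 genes of the 19S particle, and in 41.3% of all 32851 windows. Some genes have several windows, 3 of the 41 among them, and a gene was counted if any window held the motif, so the share of all 27025 genes counted in that way, 45%, is the one to set beside these counts. CCAAT was found for 6, 1 and 4 genes in that order and for 41.1% of all genes. The interferon-stimulated response element was found for 1 gene in each list and for 3.99% of all genes, and the gamma-activated site TTCNNNGAA for 0, 1 and 1 genes and for 9.55% of all genes.

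The glucocorticoid response element, on either strand, was in the window of 1 of the 41 genes and for 0.537% of all genes. The match is in *Psme2b*, the low-abundance copy of *Psme2*, at chr11:48946608-48946636 on the minus strand and position -218, and is printed because the deleted gene encodes the receptor that reads such elements. Capitals mark the element. No match in a window says only that these letters are not there.
Psme2b: ccctcagaGAACAGTCTGTGCaggtgagc

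The 48 genes lie on 16 chromosomes, with 10 on chromosome 11 and 5 on chromosome 14. For 12 of 48, more than 10% of 50-base stretches occur in transcripts of another gene, and for 19 none do. Exons of 15 overlap an annotated gene, so reads there could be counted for either.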

How the data were processed

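RNA-Seq was analysed for 3 control and 3 Nr3c1-Foxp3Cre libraries of Tregs sorted from B16.F10 tumors, grouped by the sample titles. Reads were trimmed (Cutadapt), aligned to mm10 (STAR) and summed per gene as RSEM estimates against GENCODE M21 by the authors, who then dropped low-count genes and applied quantile normalization. The deposited values are log2 CPM after these steps, and 12153 genes have one. Counts and depth are unknown, so no counting interval is given, and the number of libraries limits the precision. Quantile normalization would hide a change in total RNA.

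The whole table was fitted on genotype alone in R 4.3.3 with limma 3.58.1, whose eBayes step used a trend of variance on mean, two-sided, with Benjamini-Hochberg adjustment at 0.05. The study's voom weights need counts and were not used. The fit was tested on simulated data, with 200 genes of the whole table changed in each of 5 simulations. At an adjusted p under 0.05 it called 5.67% of genes changed by 0.5 log2 units. It called 46.6% of those changed by 1 and 77.3% of those changed by 2. Changed genes were drawn from all genes, with noise independent between genes, so these shares are not those of the proteasome genes. Pairs of subunits were compared with exact permutation tests over libraries. Lists were described by counts and medians, without a test. Positions and lengths came from GENCODE M21 on mm10, where 12130 genes (99.8%) and 48 of 48 proteasome genes matched by identifier, and promoters from RefSeq on GRCm38.p6, an assembly of the same coordinates.

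The genes, lists and tests were chosen with earlier results of these data known. Values by library are given for the immunoproteasome genes and their 3 constitutive partners, for the 5 genes with the largest absolute log2 fold change and a mean log2 value of at least 3, for genes at the top and bottom of level in each class, for genes whose groups do not overlap, and for Irf1, Tap1, Nfe2l1 and Nr3c1. Some listed genes are not reported here. Alternatives were other variance moderation, vooma and sample quality weights, log2(CPM + 1), a floor at 0, dropping genes with a mean under 1, cyclic loess, median centering, marker covariates, a replicate block, longest transcripts and leaving out each library.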

Additional observations from a re-analysis of the deposited data

How the results depend on the processing

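Under each of the 12 alternatives and without each library in turn, 0 of 48 proteasome genes had an adjusted p under 0.05. Calls over all genes, 1 higher and 6 lower as reported, were 4 and 14 with the melanoma covariate, 7 and 12 with sample quality weights, 0 and 0 without a trend, and 0 and 0 with the replicate block. They were 2 higher with vooma weights and 12 lower with the macrophage covariate. Without a library they ranged from 0 to 3 higher and from 0 to 5 lower. The cause was not tested. Sample quality weights gave Control replicate 3 a weight of 7.47 and the others at most 0.860. With them 3 of 48 proteasome genes had an unadjusted p under 0.05, all lower (Psmb7, Psmb10 and Psmb9). Over all genes the count was 1376 of 12153, in either direction. Leaving out a library gave 0 to 1 proteasome genes (Psmb10, without Control replicate 2). Without that library the count over all genes was 703.

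Without a library, the median log2 fold change ran from -0.12 to 0.0021 in the core, from -0.14 to 0.013 in the immunoproteasome and from -0.029 to 0.078 in the 19S particle, where it was 0.11 with the macrophage covariate. The difference between groups ran from -0.00077 to 0.14 for Psmb8 minus Psmb5, from -0.25 to 0.060 for Psmb9 minus Psmb6 and from -0.054 to 0.045 for Psmb10 minus Psmb7.

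Some estimates changed sign, most of them near 0. With the macrophage covariate log2 fold changes were 0.020 for Psmb8, -0.020 for Psme1, 0.0096 for Psme2, 0.10 for Psmb6, 0.088 for Psma7, 0.0015 for Psmg4, 0.038 for Psmd10, -0.079 for Psme4 and -0.012 for Tap1. With sample quality weights they were -0.035 for Psme1, 0.036 for Psmb6, 0.0041 for Psma7, -0.030 for Psmc6, -0.043 for Psme3 and -0.068 for Tap1. Psma7 was at 0.00014 with median centering and 0.0073 with the melanoma covariate, and Tap1 at -0.0028 with cyclic loess. Without a library they ranged from -0.14 to 0.094 for Psmb8, -0.035 to 0.047 for Psme1, -0.13 to 0.045 for Psme2, -0.15 to 0.070 for Psmb6, -0.077 to 0.082 for Psma7, -0.052 to 0.14 for Psmc5, -0.029 to 0.042 for Psmc6, -0.026 to 0.11 for Psmd2, -0.15 to 0.0068 for Psmd14, -0.047 to 0.048 for Psmd9, -0.13 to 0.12 for Psmd10, -0.070 to 0.054 for Psme3, -0.085 to 0.11 for Psme4 and -0.061 to 0.051 for Tap1. Among estimates that kept their sign without each library but moved by over 1.5 times, Psmg4 ran from -0.40 to -0.046, Psmb5 from -0.14 to -0.017, Psmc1 from 0.0062 to 0.18, Irf1 from 0.061 to 0.33 and Nfe2l1 from 0.074 to 0.29. With the macrophage covariate Psmc1 was at 0.21 and Irf1 at 0.023.

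Deviations of same-numbered libraries correlated at -0.12, -0.33 and -0.025 across genes. Those of differently numbered libraries ran from -0.27 (Control replicate 1 with Nr3c1-Foxp3Cre replicate 3) to 0.36 (Control replicate 1 with Nr3c1-Foxp3Cre replicate 2). Deviations are from a group mean of 3 libraries, so these values depend on each other and cannot show whether libraries were paired. With the replicate block 0 of 48 proteasome genes passed and their log2 fold changes were as without it. Unknown depth and 3 libraries a group limit what could be seen: the median interval of a proteasome gene spans 0.244 log2 units to each side.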
